A study of Mus musculus with 6 samples.

Results

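The regions described here were called as Ikaros peaks in the WT lists. The authors' tables tied them to genes of noncoding or other biotypes, and to none listed there as protein coding. Whether each is bound by Ikaros was not tested. A peak was taken when none of its rows in a WT peak list carried the biotype protein coding, at any distance from the gene, and peaks that shared at least 1 base across lists were merged. This gave 379 regions, against 2526 regions when every peak of the 3 lists was merged in the same way. Member regions therefore numbered 15.0% of all regions (95% Clopper-Pearson interval 13.6 to 16.5). The other peaks, those with a protein-coding row, merged into 2152 regions, and 5 member regions touched such a peak in another list.

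The study mapped Ikaros, the zinc finger factor encoded by Ikzf1, by chromatin immunoprecipitation and sequencing (ChIP-seq) in mouse natural killer (NK) cells. Splenic NK cells were grown in IL-15 at 50 ng/ml, and fixed chromatin was precipitated with an antibody to Ikaros. The WT group held 3 libraries with the Ikzf1 genes intact. In the KO group, also 3 libraries of expanded splenic NK cells, Ikzf1 was deleted conditionally under NKp46, a receptor that NK cells acquire as they develop, so the deletion depends on NKp46 expression. All values below come from WT libraries, and KO libraries were not analysed here. Expression was not measured in these lists, so the identity of the cells as NK cells could not be checked against marker levels, and the labels do not say whether the libraries came from separate animals.

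Ikaros is best known as a regulator of lymphocyte development that can both repress and activate genes, and its zinc fingers bind DNA around a GGGAA core. Noncoding genes come in several kinds. Long noncoding RNAs (lncRNAs) include lincRNAs, which lie between coding genes, antisense RNAs, which run against a coding gene, and transcripts that leave a promoter opposite to a coding gene. MicroRNAs (miRNAs) pair through their seed with messenger RNAs and lower their output, snRNAs act in splicing, and snoRNAs guide chemical changes of other RNAs. TEC is the annotation's tag for transcripts that still await an experimental check. A noncoding gene can have functions of its own, or it can be the nearest named feature to a regulatory element of a distant coding gene, and a peak list does not separate these.

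Some member regions reached the promoter of a gene. Such promoters are shown because their bases could be read, but parts of them lie outside the regions. RefSeq promoters (build GRCm38.p6, 250 bases before to 50 after a gene's start) lay wholly or partly under 46 member regions. Of these regions, 12 were in all 3 lists and 13 met the promoters of more than 1 gene. Of the 59 promoters at these regions, 30 belonged to lncRNA genes and 29 to protein-coding genes, although no row of these peaks carried the biotype protein coding. The rows do name Zswim6 and Crybg3, which RefSeq lists as protein coding, but as processed transcripts. The 5 promoters below belong to lncRNA genes under regions found in all lists, chosen after their values had been seen. All are written 5′ to 3′ on the gene's own strand. Capitals mark TGGGAA, an Ikaros core with a leading T, GGAAGT, a core bound by ETS factors, and TGACTCA, the AP-1 element, each searched on both strands, so that a motif on the other strand appears as its reverse complement (TTCCCA for the first). TGGGAA and GGAAGT share bases where they occur as TGGGAAGT.
Gm32287: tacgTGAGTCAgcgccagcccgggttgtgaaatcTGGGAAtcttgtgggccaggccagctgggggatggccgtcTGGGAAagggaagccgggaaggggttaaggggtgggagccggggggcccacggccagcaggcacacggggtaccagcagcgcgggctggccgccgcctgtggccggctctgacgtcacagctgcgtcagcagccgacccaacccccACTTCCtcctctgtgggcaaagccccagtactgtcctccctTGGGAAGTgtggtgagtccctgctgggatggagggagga
D430020J02Rik: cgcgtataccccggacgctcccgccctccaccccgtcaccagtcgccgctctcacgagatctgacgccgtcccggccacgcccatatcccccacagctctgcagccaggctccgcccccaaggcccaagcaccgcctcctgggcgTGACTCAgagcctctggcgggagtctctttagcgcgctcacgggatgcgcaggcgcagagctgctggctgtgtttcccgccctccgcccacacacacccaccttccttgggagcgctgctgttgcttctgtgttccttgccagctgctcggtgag
Gm13421: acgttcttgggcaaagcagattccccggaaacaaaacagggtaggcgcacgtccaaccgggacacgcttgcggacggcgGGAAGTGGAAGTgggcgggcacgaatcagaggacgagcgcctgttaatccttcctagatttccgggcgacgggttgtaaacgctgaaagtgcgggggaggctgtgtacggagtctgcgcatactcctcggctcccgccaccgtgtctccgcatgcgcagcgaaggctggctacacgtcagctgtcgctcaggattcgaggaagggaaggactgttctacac
Gm26698: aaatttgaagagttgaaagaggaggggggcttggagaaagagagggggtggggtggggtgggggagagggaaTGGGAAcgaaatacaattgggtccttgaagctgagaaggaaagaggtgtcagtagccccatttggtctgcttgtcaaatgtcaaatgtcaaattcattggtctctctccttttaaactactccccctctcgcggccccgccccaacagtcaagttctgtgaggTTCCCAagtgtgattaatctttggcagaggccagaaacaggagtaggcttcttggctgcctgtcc
Gm46404: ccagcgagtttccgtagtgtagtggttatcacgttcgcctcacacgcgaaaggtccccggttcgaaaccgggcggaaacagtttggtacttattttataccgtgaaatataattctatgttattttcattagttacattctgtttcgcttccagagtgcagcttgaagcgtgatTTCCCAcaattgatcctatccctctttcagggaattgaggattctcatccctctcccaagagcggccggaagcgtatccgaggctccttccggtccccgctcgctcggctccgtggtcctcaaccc

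The promoter of Gm32287 (chr2:167777365-167777664, minus strand) held 3 copies of TGGGAA, 2 of GGAAGT and 1 TGACTCA. It overlapped the promoter of Gm14321, a gene transcribed in the other direction, and 229 of its 300 bases lay in the peak region. The TGACTCA and the first TGGGAA printed lay outside that region. The promoter of D430020J02Rik (chr12:116405112-116405411, minus strand) held 1 TGACTCA. The same element also lies in the overlapping promoter of Ncapg2, a condensin II subunit gene that is transcribed in the other direction. The promoter of Gm13421 (chr2:27540176-27540475, plus strand) held 2 GGAAGT motifs side by side. The promoter of Gm26698 (chr12:86892518-86892817, minus strand) held 2 copies of TGGGAA. Only 138 of its 300 bases lay under the region, and the first copy printed lay outside it. The promoter of Gm46404 (chr13:23445922-23446221, minus strand) held 1 TGGGAA and lay whole, with 300 of 300 bases, under its region. RefSeq also places the tRNA genes n-TVcac9 and n-TRacg5 in the Gm46404 region.

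The shares of promoters with each motif are given beside those under other peaks and in the whole table, and were not tested. TGGGAA occurred in 12 of the 59 promoters under member regions (20.3%), in 21.7% of 1241 promoters under other peaks and in 25.6% of all 32851 promoters of the table. GGAAGT occurred in 32.2% of the promoters under member regions, 33.9% under other peaks and 23.8% of all. TGACTCA was present in 3 of 59 (5.08%), 2.82% and 5.20%, and with any middle base (TGANTCA, which includes TGACTCA) in 5.08%, 3.46% and 7.81%. In the 30 lncRNA promoters alone, TGGGAA occurred in 9, GGAAGT in 11 and TGACTCA in 2, and in the 29 coding promoters in 3, 8 and 1. Median GC content was 65.0% in these 30 lncRNA promoters, 67.3% in the 115 lncRNA promoters under other peaks and 48.3% in all lncRNA promoters of the table. For coding promoters it was 66.7% under member regions, 66.0% under other peaks and 56.3% in the table. Among the 16 promoters wholly or partly under regions in all lists, 6 held TGGGAA, 5 held GGAAGT and 3 held TGACTCA. These 3 are D430020J02Rik and Ncapg2, which share the element, and Gm32287, whose element lay outside its region. All shares count matches over whole promoters, also where few bases lay under a region, such as 9 of 300 for 3110056K07Rik. A match describes these letters only, overlapping promoters are counted once each, and the table's cover of the genome is not complete.

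Mature miRNAs are shown next because several member regions lay near miRNA genes with known roles in lymphocytes. In all, 24 RefSeq hairpins were within 10 kb of 15 of the 379 member regions. Other regions were not searched, so whether this share is particular to members was not tested. The seed, bases 2 to 8, is in capitals. The miR-17 to miR-92 cluster, which promotes lymphocyte proliferation and survival, has miR-17-5p and miR-20a-5p with a common seed, and miR-19a-3p and miR-19b-3p with another.
miR-17-5p: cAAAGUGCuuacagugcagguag
miR-20a-5p: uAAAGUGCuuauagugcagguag
miR-18a-5p: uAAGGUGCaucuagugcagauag
miR-19a-3p: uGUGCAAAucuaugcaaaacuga
miR-19b-3p: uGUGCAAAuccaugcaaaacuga
miR-92a-3p: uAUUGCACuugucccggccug
The second set comes from the cluster of miR-23a, miR-27a and miR-24-2, whose seeds differ.
miR-23a-3p: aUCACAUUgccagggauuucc
miR-27a-3p: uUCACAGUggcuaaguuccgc
miR-24-3p: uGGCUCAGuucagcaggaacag
The third set comes from Mir132 and Mir212, neighbours with a common seed, and from Mir142, which is abundant in blood cells.
miR-132-3p: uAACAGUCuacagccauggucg
miR-212-3p: uAACAGUCuccagucacggcca
miR-142a-3p: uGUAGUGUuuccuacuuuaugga

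At the Mir17hg gene, host of the miR-17 to miR-92 cluster, 1 region (chr14:115040669-115041767) was in all lists, and replicates 1, 2 and 3 gave it fold enrichments of 5.67, 4.06 and 4.25. Fold enrichment here is the authors' linear ratio of the ChIP signal to the peak caller's background, and it describes a peak within its own list. The nearest edge of the region was 1.90 kb from the Mir17 hairpin, and its middle was 2.45 kb upstream of the hairpin's 5′ end. A region 4.20 kb from the Mir23a hairpin and 4.36 kb from Mir27a (chr8:84203523-84204315, assigned to the TEC gene Gm37352) was also in all lists, with 5.29, 5.76 and 6.13. The region over Mir132 (chr11:75173527-75173870) contained that hairpin, lay 0.049 kb from Mir212, and was in replicates 2 and 3 with 4.85 and 7.17. Mir142hg had 3 regions, none in replicate 1. The nearest to the hairpin, 0.242 kb away, had 3.98 in replicate 2 and 4.32 in replicate 3, and the next, 4.95 kb away, had 4.34 and 4.21. The third was in replicate 2 alone with 4.38. Gm37238, a TEC gene with a region in all lists (4.44, 4.52 and 4.43), lay 8.16 kb from Mirlet7a-1 and 8.51 kb from Mirlet7f-1, which carry the let-7 seed. Thus the lists agreed on presence at Mir17hg, Gm37352 and Gm37238, while at Mir132 and Mir142hg replicate 1 had no peak.

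**Figure D1:**
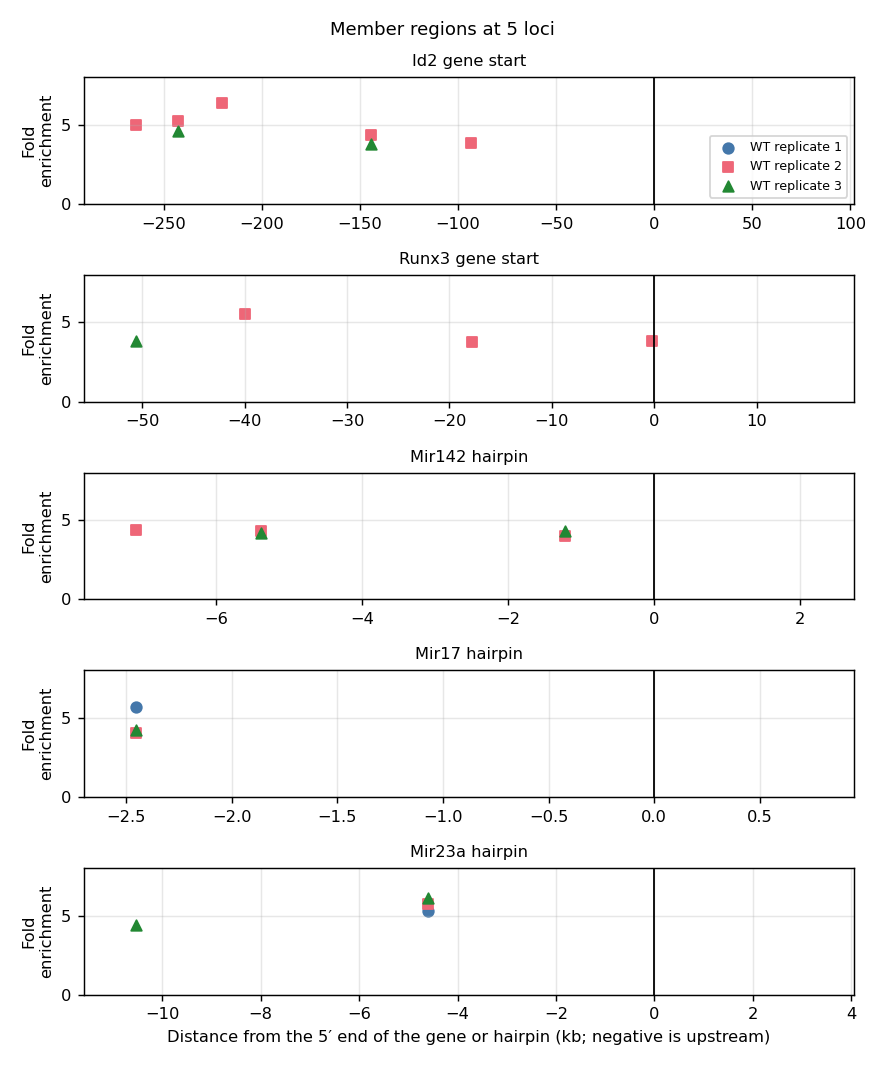
Fold enrichment (vertical axis, linear ratio) of the member regions at Id2, Runx3, Mir142, Mir17 and Mir23a against distance in kb from the 5′ end of the gene or hairpin, negative being upstream. Each point is a peak in 1 WT list. All points lie upstream, those at Id2 between 93.4 and 264 kb away, and replicate 1 has points at Mir17 and Mir23a only.

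Of 685, 2084 and 1342 peaks in WT replicates 1, 2 and 3, those assigned only to noncoding genes numbered 102, 334 and 173. The shares were 14.9%, 16.0% and 12.9% (mean 14.6%, SD 1.59, n = 3). Sequencing depth is unknown, since the lists carry peaks without reads. Replicate 1 had the shortest list throughout, and absence from it carries less information than absence from the others.

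Of the 379 member regions, 77 were in all 3 lists, or 20.3%, against a background of 19.8% over all regions. In 2 or more lists there were 153, or 40.4%, against a background of 42.9%. These shares are near the background, so member regions recurred between lists about as often as regions in general. Another 76 were in exactly 2 lists, of which 60 joined replicates 2 and 3, 10 joined replicates 1 and 2, and 6 joined replicates 1 and 3. Of the 226 in 1 list, 187 were in replicate 2, 30 in replicate 3 and 9 in replicate 1. Seen per peak, 76.5% of the member peaks of replicate 1 had a partner in both other lists, against 23.7% in replicate 2 and 45.1% in replicate 3. The same shares of other peaks were 72.6%, 24.1% and 36.1%.

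The median percentile of member peaks was above that of other peaks in each list, but 3 lists are too few for the test to call a difference of any size. Their median fold enrichments were 5.13, 4.95 and 5.19 in replicates 1, 2 and 3, and those of other peaks were 5.10, 4.72 and 4.95. Values of members ran from 2.27 to 40.8, from 2.13 to 59.7 and from 2.58 to 50.3. As within-list percentiles of fold enrichment, with 100 for the strongest peak, the member medians were 50.9, 57.1 and 55.9, against 49.9, 49.1 and 49.3. The difference was 5.21 percentile points (SD 3.69, n = 3 lists) and members were higher in 3 of 3 lists, with p = 0.25 in an exact sign-flip test over lists, 2-sided, and 0.5 after Benjamini-Hochberg adjustment over 2 tests. With 3 lists, 0.25 is the smallest p this test can give, so it cannot reach 0.05. With peaks of -log10 q of 5 or more, members were higher in 2 of 3 lists (mean difference 2.99, lists from -5.27 to 9.42, exact sign-flip p = 0.75). Median widths were 319, 286 and 302 bp for members and 277, 294 and 293 bp for other peaks, and the difference of 14.3 bp was smaller than its spread (SD 25.4, exact sign-flip p = 0.5, adjusted 0.5).

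Where a region was in more than 1 list, its strength tended to keep its order between them. Spearman's rho of fold enrichment over shared member regions was 0.650 between replicates 1 and 2 (over 87), 0.700 between replicates 1 and 3 (over 83) and 0.813 between replicates 2 and 3 (over 137). For regions of other peaks it was 0.616, 0.659 and 0.675. These are descriptions over regions, which share their libraries and mapping and are not replicates.

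Many of the strongest member regions lay far from coding genes, which the choice of members favours. First was a region assigned to the lincRNA gene Gm48821 (ENSMUSG00000110783, chr9:84970377-84971581, 1205 bp), with fold enrichments of 40.8, 59.7 and 50.3. It lay 45.7 kb from Gm48821 by the authors' distance and 349 kb from the nearest RefSeq coding gene, Tent5a, which encodes a poly(A) polymerase family member. Second was a region assigned to the snRNA gene Gm25207 on chromosome X (chrX:15640286-15641170), with 16.5, 30.0 and 25.2, at 882 kb from Cypt1. A region assigned to 4933423L19Rik (chr7:69824951-69825653) had 11.4, 20.5 and 18.2 and lay 527 kb from Nr2f2, an orphan nuclear receptor gene. All 3 had their lowest value in replicate 1 and their highest in replicate 2.

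Gm48612 (chr13:47328157-47328819), 80.5 kb from Rnf144b, a ubiquitin ligase gene, had 11.4, 22.9 and 17.2. Gm26901 (chr1:7322389-7322873) had 11.0, 16.0 and 14.3, at 149 kb from Pcmtd1, and the same lincRNA held a further region in replicates 1 and 2. AC161537.1, 97.0 kb from Basp1, had 7.46, 15.0 and 12.4. Gm25216, a snoRNA gene, had 6.74, 14.7 and 11.3, at 34.9 kb from Pyroxd2. Of the 20 strongest regions in all lists, 13 lay over 50 kb from any coding gene end, with a median of 123 kb. Over all 77 member regions in all lists, 39 did so, with a median of 51.0 kb. Only 2 of the 20 overlapped the noncoding gene they were assigned to. Those 2 were Gm26904 (7.48, 9.89 and 10.2), 2.90 kb from Gnmt, a glycine methyltransferase gene, and A530072M11Rik (5.92, 12.8 and 10.5), 5.05 kb from Ripk2, a kinase gene of innate immune signalling. One of the 20, assigned to Gm553, lay inside Nemp2 (6.71, 8.46 and 6.24). The other members of the 20 were assigned to Gm23590, Gm42826, Gm29685, Gm13580, Gm23186, Gm13794, Gm25045, Gm23476, Gm23900 and Gm28590, with fold enrichments between 5.19 and 12.0. Fold enrichment was higher in replicate 2 than in replicate 1 in 19 of the 20. The 20 were picked by these values, so their strength is a description.

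**Figure D2:**
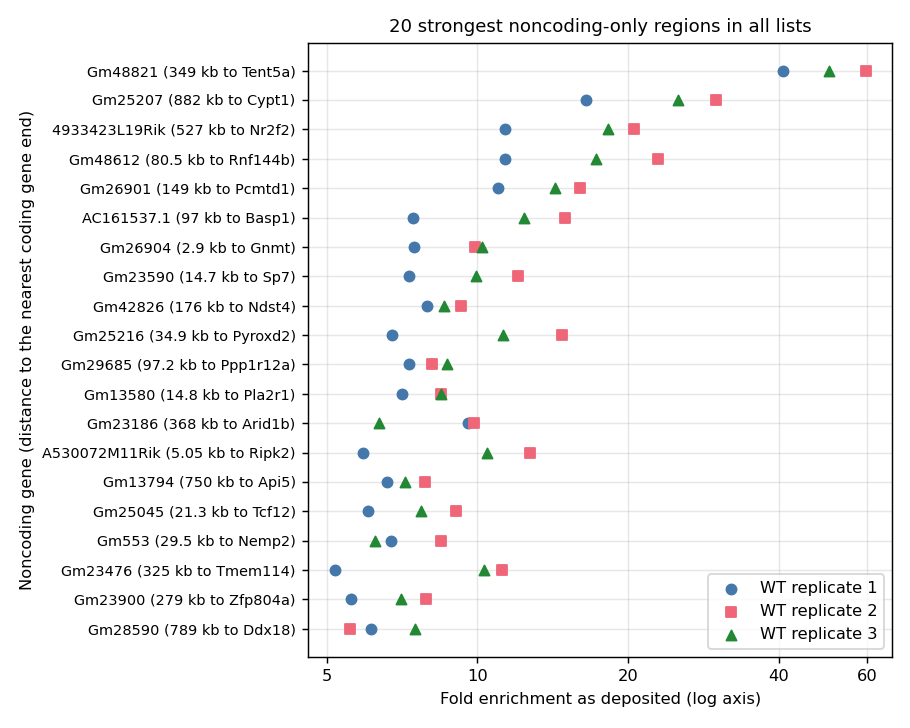
Fold enrichment as deposited (horizontal axis, log scale) of the 20 member regions that were strongest in all lists by mean percentile, 1 point per WT list, in that order. Labels give the assigned noncoding gene and the distance to the nearest RefSeq coding gene end. Gm48821 stands apart at 40.8 to 59.7, and replicate 1 is below replicate 2 in 19 of 20.

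Members were chosen by the biotype of their assigned genes, at any distance. That choice is related to the distance to coding genes, so a difference in this distance is built in. Within 1 kb of a RefSeq coding gene end lay 13.7%, 12.9% and 12.7% of member peaks, against 57.6%, 52.3% and 60.3% of other peaks (mean difference -43.7 percentage points, SD 4.07, n = 3 lists). The difference is given as a description, with no test. Yet 50 of the 379 regions, or 13.2%, were within 1 kb of such an end, 27 overlapped a RefSeq coding span and 8 were nearer to a coding end than to their assigned gene. Over 50 kb from any coding end lay 181 regions (47.8%), and 39 of the 77 in all lists. By RefSeq, 108 regions (28.5%) overlapped a lncRNA gene and 234 (61.7%) no gene of any type, against 16.3% of other regions. Only 139 (36.7%) overlapped the noncoding gene named in the authors' rows.

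Among the 77 regions in all lists, strength showed no steady course with distance from coding genes. Their median mean percentile was 61.4 for 10 regions within 1 kb of a coding end and 74.4 for 11 regions at 1 to 10 kb. It was 55.8 for 17 regions at 10 to 50 kb, 52.1 for 23 at 50 to 200 kb and 79.3 for 16 regions over 200 kb away. The farthest class had the highest median, and each class holds few regions.

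**Figure D3:**
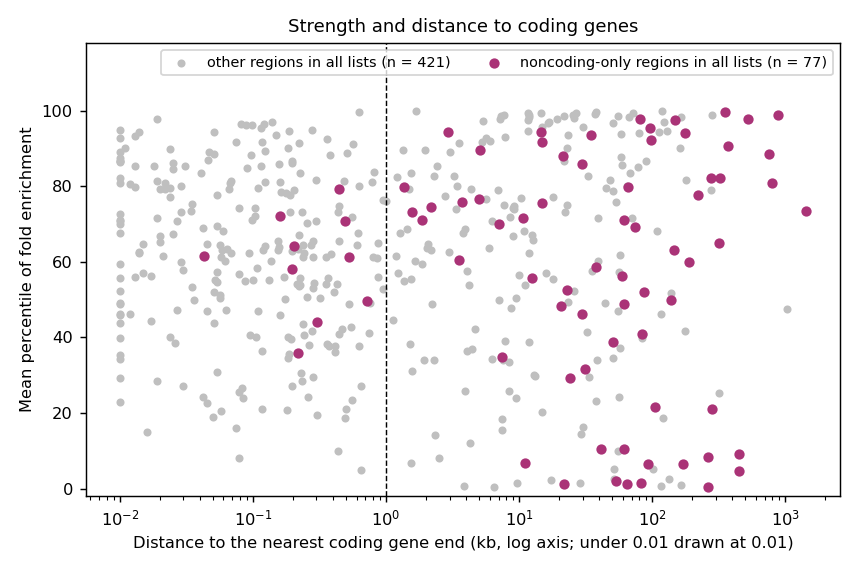
Mean within-list percentile of fold enrichment (vertical axis) against distance in kb to the nearest coding gene end (log axis) for the 77 member regions and 421 other regions in all lists. The dashed line marks 1 kb. Members spread over all distances, with 39 beyond 50 kb, and a group of 11 sits below a percentile of 10.

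By biotype, lincRNA genes held the most member regions, 186, with 32 of them in all lists (17.2%). Processed transcripts held 41 (9 in all lists), TEC genes 38 (12), antisense genes 31 (5), miRNA genes 22 (5), snoRNA genes 21 (3), snRNA genes 20 (7) and misc RNA genes 14 (3). There were 7 at bidirectional promoter lncRNAs (1 in all lists) and 5 at rRNA genes (2). A region can count under several biotypes. Antisense genes were the class nearest to coding genes, at a median of 1.51 kb, and 14 of their 31 regions were within 1 kb of a coding end. For snoRNA genes the median was 256 kb. The small RNA gene itself was overlapped by 2 of 21 regions listed under snoRNA genes, 3 of 20 under snRNA genes and 6 of 22 under miRNA genes, so the name mostly marks the nearest annotated gene. Another 6 regions were assigned to antigen receptor gene segments, which encode protein but carry their own biotypes. One of these, at Trbv1, was in all lists (4.12, 6.44 and 6.52), and 1 near Trac, the T cell receptor alpha constant gene, was in replicates 1 and 2 (3.96 and 5.70).

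**Figure D4:**
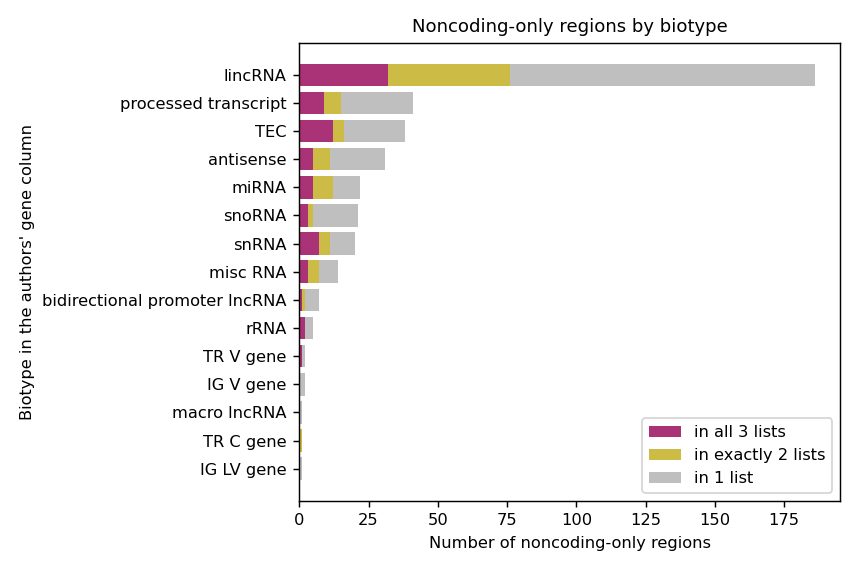
Number of member regions (horizontal axis) by the biotype in the authors' gene column, split into regions in all 3 lists, in exactly 2 and in 1. lincRNA genes hold 186 regions, and 32 of them are in all lists.

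Named next are some of the regions in all lists whose nearest coding gene is a transcription factor gene, or whose promoter is printed above. They were chosen after their values had been seen. A region in the antisense gene Gm33460 (chr9:118488112-118488510) was 2.18 kb from the end of Eomes, a T-box factor that NK cells require, and had 5.26, 7.91 and 6.07 in replicates 1, 2 and 3. The antisense gene 0610040F04Rik overlapped a region 0.495 kb from Bhlhe40, a helix-loop-helix repressor gene, with 5.02, 7.34 and 6.01. Gm10822 overlapped a region at the start of Atf2, a bZIP factor gene that can pair with JUN proteins, with 4.27, 4.61 and 4.84. The bidirectional lncRNA D430020J02Rik, whose promoter is printed above, had 4.78, 5.66 and 5.39. The Gm14321 region, with the overlapping promoter of Gm32287, had 4.74, 5.39 and 5.04 and lay 87.0 kb from Cebpb, a bZIP factor gene. Gm13657 had 5.32, 5.41 and 4.75, at 58.8 kb from Nfe2l2, which encodes the oxidative stress factor NRF2. Each of these was in all lists with values between 4.27 and 7.91.

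Other regions near lymphocyte genes were missing from 1 or 2 lists. Gm11999, 28.0 kb from Ikzf1 itself, had a region in replicates 2 and 3 with 6.16 and 4.15. The lincRNA 2310001H17Rik, 34.4 kb from the activation marker gene Cd69, had 6.41 and 5.36 in those lists. The same lists held Gm12796 near Jak1, the kinase of IL-15 signalling (4.37 and 5.23), 4933405E24Rik near Csf2, the GM-CSF gene (5.94 and 4.54), Gm37638 near Fasl, the death ligand gene (5.03 and 4.76), and Gm28556 near Ptprc, the CD45 gene (4.18 and 4.37). In replicate 2 alone were 9330179D12Rik, 3.23 kb from the cyclin gene Ccnd2 (5.99), and 2 regions near each of Prdm1 and Xcl1. In replicate 3 alone were Gm26885, 0.147 kb from Pim1 (4.47), and Gm37947, 1.89 kb from Myc (4.48). These neighbours were named after their values had been seen, and nearness to a gene is not a measured effect on it.

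Some coding genes were the nearest one to several member regions, at any distance. Of 338 coding genes nearest to any member region, 33 had 2 or more and 5 had at least 3. Some of these distances were large, such as 716 to 1639 kb for G6pd2. Id2, a helix-loop-helix inhibitor that NK cell development needs, had the most, with 5 regions 93.4 to 264 kb upstream of its start, assigned to Gm36287, Gm47705 and AC163354.1. Their fold enrichments in replicate 2 were 3.83, 4.34, 6.40, 5.22 and 4.96, going away from Id2. Replicate 3 listed the regions at 144 kb (3.81) and 243 kb (4.60), and replicate 1 listed none. Runx3, a Runt factor gene active in NK and cytotoxic T cells, had 4 regions assigned to Gm16225, each in 1 list. These lay 0.216, 17.8, 39.9 and 50.6 kb upstream, with 3.79, 3.77 and 5.53 in replicate 2 and, for the farthest, 3.80 in replicate 3. Klf6 had 3 regions, and the strongest, assigned to Gm46401 and Gm47507 at 56.5 kb, had 8.65 in replicate 2 and 7.66 in replicate 3. The plot of fold enrichment by distance at 5 loci shows those of Id2 and Runx3 beside the miRNA genes.

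Few names of the 8 noncoding gene lists were among the 373 noncoding genes assigned to member regions. The share over all noncoding genes was not computed, so the counts below show nothing particular to these names. Both lists and matches go by name. Mir23a and Mir27a, with a region in all lists 4.20 and 4.36 kb away, therefore count as without. Of 12 nuclear and architectural lncRNAs, Malat1 had 1, in replicate 2 with 4.21, and of 5 genes of X inactivation and 15 noncoding genes of other tissues none had one. The 16 names of lymphocyte lncRNAs include both Gm14005 and Morrbid, which RefSeq gives as the same gene. This gene, which controls survival of short-lived myeloid cells, had 5.09 and 4.43 in replicates 2 and 3. Lncpint had 4.15 and 4.74 in the same lists, and Dleu2 had 4.09 in replicate 3. Among 41 lymphocyte miRNA genes and hosts, 2 had member regions, Mir17hg and Mir142hg, described above. Of 9 imprinted genes and 19 snoRNA hosts, Snhg14, which is in both lists, had 1 region in replicate 2 (4.20). Of 12 RNA polymerase III and housekeeping RNAs, Rn7s2, a signal recognition particle RNA gene, had 4.80 and 6.84 in replicates 1 and 2, and Vaultrc5 had 3.61 in replicate 2. A gene of these lists could still lie in a peak that also had a coding row, but none was named in any other row.

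Small RNA genes that a region covered included Snord49b, a snoRNA gene within 2410006H16Rik, whose region was in all lists (5.17, 7.02 and 5.88). The Gm46404 region with its tRNA genes had 4.64, 6.64 and 10.7, a wider spread between lists than in the other 4 regions with a promoter printed above. RefSeq tRNA genes lay in 4 member regions (1.06%) and in 13 of the other regions (0.604%).

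At the low end, 11 of the 77 regions in all lists had a mean percentile under 10 (14.3%, 95% Clopper-Pearson interval 7.35 to 24.1), against 16 of 421 other regions in all lists. The weakest, assigned to the snRNA gene Gm24614 at chr3:8245820-8246562, had 2.46, 2.26 and 2.61. Gm28502 (chr15:75085547-75087122), 21.8 kb from Ly6c2, had fold enrichments of only 3.29, 2.13 and 2.61 but -log10 q values of 21.8, 9.18 and 14.2. Gm27940 had 2.88, 2.27 and 3.34, and Gm27878, whose region starts below 3.5 Mb of chromosome 4, had 3.06, 2.67 and 3.11. The nearest coding end was at least 11.1 kb from each of the 11. By -log10 q their percentiles were not as low, with a median of 47.7 and a range of 25.9 to 91.3, against a median of 72.5 over all 77.

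These weak regions also ordered the lists differently. Fold enrichment was higher in replicate 1 than in replicate 2 in 9 of the 11, against 18 of the 66 member regions with a mean percentile of 10 or more and 1 of the 20 strongest. The median ratio of replicate 2 to replicate 1 was 0.804 in the 11, 1.18 in the 66 and 1.46 in the 20. Other regions in all lists did the same, with replicate 1 higher in 14 of 16 below a mean percentile of 10 and in 168 of all 421. The sets were formed by strength, so these counts are descriptions, and the part of local background in them was not tested.

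**Figure D5:**
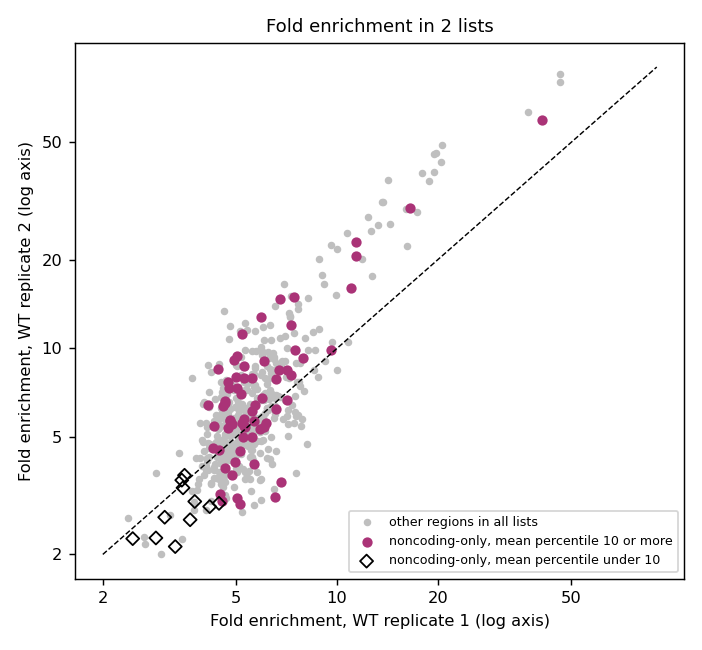
Fold enrichment in WT replicate 2 against WT replicate 1 (both log axes) for regions in all lists, with equality as the dashed line. Filled points are member regions with a mean percentile of 10 or more, open diamonds the 11 below it, and grey points other regions. Of the 20 strongest member regions 19 lie above the line, and 9 of the 11 diamonds lie below it.

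The widest member region covered a copy of ribosomal RNA genes on chromosome 17 (chr17:39842899-39848943, 6045 bp, assigned to Gm26917, AY036118, Gm42418 and CT010467.1). Its fold enrichments were 5.14, 2.96 and 3.95, while its -log10 q values were 73.8, 36.8 and 53.3. Ribosomal RNA genes are repeated many times in the genome, so reads of different copies cannot be told apart and the value is uncertain.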

How the data were processed

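The members, the gene lists and the tests were chosen with earlier results of these data known. Per the submitters' processing notes, the lists go back to MACS2, Subread, SAMtools, Picard and edgeR 3.20.0 on build mm10; what each tool did, the control library, the q threshold and the annotation are not given in the sources used here. Peak names show 1 call per library. The deposited values of a peak are, per the file headers, its fold enrichment (a linear ratio), −log10 values of its p and q, a score, and the assigned genes with their biotype, and the distance to each gene. No read counts are in the lists, so depth is unknown and Clopper-Pearson intervals (95%) cover counting error over regions only.

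Rows were reduced to 1 per peak (800, 2414 and 1595 rows to 685, 2084 and 1342 peaks), and peaks sharing at least 1 base were merged. Members and other peaks were merged separately, so their region numbers do not add up to that of all peaks. Where a region held several peaks of 1 list, the highest fold enrichment was taken. Distances to coding genes ran from a region's middle to the nearer end of a RefSeq protein-coding gene (21887 genes), without strand or exons. RefSeq matched 207 of 373 noncoding names (55.5%). Member and other peaks were compared per list, with an exact 2-sided sign-flip test over the 3 lists. Benjamini-Hochberg adjustment was over 2 tests, strength and width. The planned test of nearness to coding genes was dropped because the choice of members is related to it. Spread between lists may be technical. Regions named were taken from the 20 strongest in all lists by mean percentile, the strongest of each biotype in 2 or more lists and members of 8 noncoding gene lists. Their nearest coding genes were named in part. Of the strongest by biotype, 2610307P16Rik, Gm24632, Gm44467 and Gm26708 are not described. Other regions are said to be chosen after their values were seen. The genome sequence was not used here, so exons, introns and peak sequences are not given. Python 3.11.15, NumPy 2.4.6, pandas 2.3.3, SciPy 1.17.1 and matplotlib 3.10.9 were used. On simulated lists with 200 regions planted in all 3 lists, 100 in 2 and 300 in 1, merging found the same numbers. The planted peaks of a region shared their middle, so this checks the code only and says nothing of the data. Alternatives varied the q threshold, the overlap, the list length, the distance limits, the biotypes and the replicates.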

Additional observations from a re-analysis of the deposited data

How the results depend on the processing

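The number of member regions in all lists was 77, and in 2 or more lists 153. With peaks of -log10 q of 5 or more these became 35 and 76, and with 10 or more 12 and 32. Cutting each list to the length of the shortest gave 43 and 90. Keeping only peaks within 10 kb of the noncoding gene gave 43 and 93, and only peaks that overlap it 23 and 61. Leaving out 1 replicate, both counts ran from 83 to 137, with 137 without replicate 1, since regions in both remaining lists are then counted. The falls follow from fewer peaks, the rise from the shortest list being left out. Requiring 50% overlap, leaving out regions that touch a coding-assigned peak and leaving out TEC genes kept both within 1.5 times, at 65 to 77 and 137 to 151. Alternatives added after seeing the data, which left out regions over 3000 bp wide, regions starting below 3.5 Mb or antigen receptor segments, gave 74 to 76 and 148 to 152. The mean differences between member and other peaks kept their sign under the alternatives run, at 2.99 to 7.31 percentile points of strength and 0.5 to 38.2 bp of width, and none can pass 0.05 with 3 lists. At -log10 q of 5 or more, strength was higher in 2 of 3 lists, not 3 (p = 0.75, exact sign-flip), and width in 3 of 3, not 2 (p = 0.25). The difference in the share near coding ends, to which the choice of members is related, ran from -49.1 to -39.4 percentage points. Pseudogene biotypes do not occur in these lists. No paired analysis was possible because every result rests on WT libraries alone, with no second group to pair. Unknown depth limits what absence from a list means.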
